A study of Mus musculus with 36 samples.

Results

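The genes described here encode the nuclear subunits of the mitochondrial respiratory chain and ATP synthase. They were taken as the array symbols that follow the naming pattern of these families (Nduf, Sdh, Uqcr, Cox4 to Cox8, Atp5). A mean deposited intensity of at least 150 over all 36 arrays was required, and each symbol was represented by its probe of highest mean. Of 79 symbols that matched the pattern, 70 met the threshold, among 20893 genes tested. By symbol, 34 of the 70 belong to complex I, 3 to complex II, 4 to complex III, 10 to complex IV and 14 to complex V. The remaining 5 follow the naming pattern but encode no subunit: Ndufaf1 is a complex I assembly factor, Cox7a2l a supercomplex factor, Cox4nb (now Emc8) a component of an endoplasmic reticulum membrane complex, Atp5s (now Dmac2l) a regulatory factor of ATP synthase also called factor B, and Atp5sl (now Dmac2) a factor in complex I membrane-arm assembly. One gene counted under complex I by its symbol, Ndufa4, has since been assigned to complex IV.

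Electrons from NADH enter the chain at complex I and those from succinate at complex II. They pass through complex III and cytochrome c to oxygen at complex IV, and the proton gradient built on the way drives ATP synthase, complex V. Astrocytes carry out both glycolysis and oxidative phosphorylation. Most subunits are encoded in the nucleus and imported, while a small set, not analysed here, is encoded by mitochondrial DNA.

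Astrocytes grown from the cortex of newborn C57B/6 pups were exposed to about 100 nM dexamethasone, a synthetic glucocorticoid, or to vehicle. RNA was taken at 8 times, of which 0.25, 1 and 2 h were the earliest, 4 and 6 h lay between, and 12, 18 and 24 h were the latest. Neither the vehicle's composition nor any genetic change is given, and the protocol names cortex or hippocampus although the samples are labelled cortical. Each treatment had 3 arrays at 2 h and at 4 h and 2 at every other time, 18 in all. The labels do not say whether replicates were separate cultures, so the p-values given here reflect sample-to-sample spread that may be technical. Precision is limited by how few arrays each group has. Whole cultures were profiled, so fewer cells of a type and less RNA per cell cannot be told apart.

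All 5 glucocorticoid-response genes used as a check rose in the mean over the 8 times, with Fkbp5 higher by 3.22 on the log2 scale (SE 0.08). Of 10 astrocyte markers, 9 lay above the background level on all 36 arrays. So did 10 of 12 microglia markers, 5 of 11 oligodendrocyte lineage markers, 4 of 8 fibroblast and endothelial markers, 3 of 3 measured ependymal markers and 2 of 6 measured neuron markers, with 2 further neuron markers at no time above it. In vehicle arrays, the summed level of the microglia markers ranged from 13.7 to 14.3 (log2) at 0.25 and 1 h and from 11.1 to 12.1 at 2, 4 and 6 h. Vehicle titles at 2, 4 and 6 h carry a suffix that the labels do not explain, so culture series and time cannot be told apart in comparisons across times.

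All 70 probes lay above the background level on every array. Members just inside the threshold were Ndufab1, an acyl carrier protein of complex I (mean intensity 168), Atp5k, the e subunit of ATP synthase (213), and Ndufb11, an accessory subunit of the complex I membrane arm (234). Just outside it lay Uqcrfs1, the Rieske iron-sulphur protein of complex III (114), Cox8b (91.5) and Cox8c (86.1). The lowest members went on with Cox7a1 (422) and Cox7b (486), and the highest were Atp5g3 (31820), Atp5b (30659), Ndufa13 (25192), Atp5j2 (17940) and Atp5o (17425). The other symbols left out were Cox4i2, Uqcrq, Cox6a2, Sdha, Cox7b2 and Ndufs1, with means from 65.1 for Ndufs1 to 85.2 for Cox4i2. These means chose the members. A probe's brightness also depends on its sequence, so means were not set against each other as transcript levels.

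**Figure D1:**
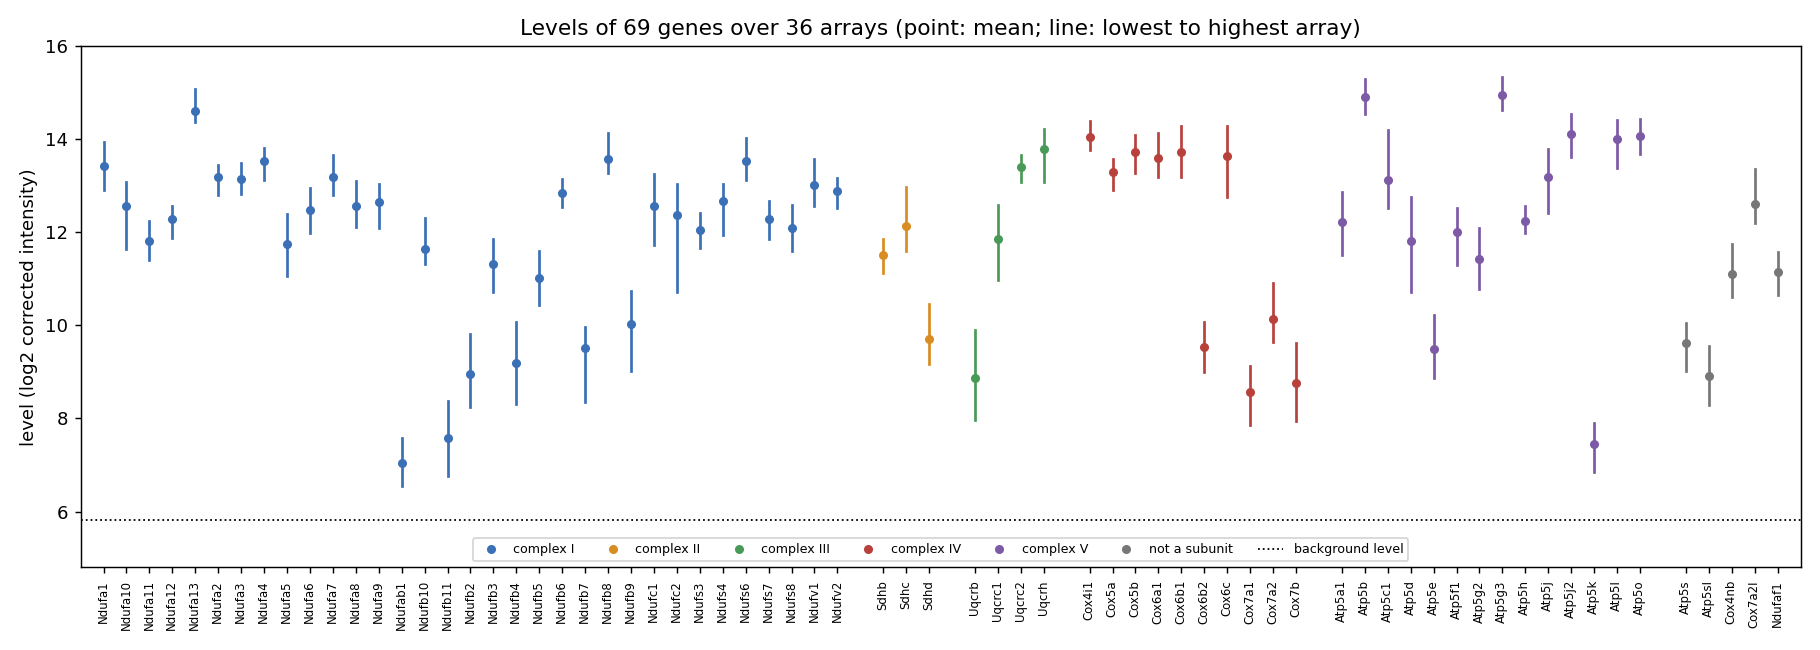
Level of 69 of the 70 genes (vertical axis, log2 of background-corrected intensity) over all 36 arrays, in alphabetical order within each complex. Points are means, lines run from the lowest to the highest array, and the dotted line is the background level at 5.81; every line lies above it, and the line of Ndufc2 reaches from 10.72 to 13.03.

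Within groups of replicate arrays, the median SD of the 70 genes was 0.24 on the log2 scale, against 0.25 over all genes tested. Uqcrc2, a core protein of complex III, had the smallest SD (0.096) and Ndufc2, an accessory subunit of complex I, the largest (0.80). The large spread of Ndufc2 came from 6 arrays. On replicate 1 at 0.25 h, replicate 2 at 1 h and replicate 1 at 2 h, in both treatments, its level was 10.72 to 11.36, and on the other 30 arrays 11.93 to 13.03. The same 6 arrays held the lowest 6 values of Ndufb7 (8.36 to 8.56 against 9.30 to 9.97), Ndufs4 and Atp5l, and the highest 6 values of Sdhc (12.63 to 12.97 against 11.59 to 12.59), Atp5o and Cox7a2l. With Ndufc2 itself, whose low values picked these arrays, 4 of the 70 (5.71%) had their lowest values there, against 1.87% of all genes tested. The 5.71% is therefore raised by the gene that picked the arrays. At the highest end the share was 4.29%, against 1.12%. These arrays were noticed after their values were seen, so no test was made of them. A second, dimmer probe of Ndufc2 read 6.53 to 7.94 on the 6 arrays and 6.88 to 8.96 on the others, and these ranges overlap. Each of the 6 has its same-numbered partner in the other treatment among them, and results that differ without them are given with the comparisons.

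The first question was whether dexamethasone moved the respiratory chain in either direction. Averaged over the 8 times, 1 of the 70 genes was called changed at an adjusted p under 0.05 in limma, while 11.6% of all genes tested were called. That gene was Atp5s, which is not a subunit, and none of the 65 subunits was called (1 of the 65 had an unadjusted p under 0.05). With the replicate number as a block, which pairs the same-numbered arrays, 2 of the 70 were called, Atp5s and the complex I subunit Ndufb11 (adjusted p 0.012). Among all genes with a mean intensity of 150 or more, which the 70 had to reach, 16.8% were called. The median difference of the 70 genes was -0.004 on the log2 scale, against -0.008 over all genes tested, with 34 genes above 0 and 36 below. The differences ran from -0.23 to 0.22, and 56 of 70 lay within 0.1 of 0.

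The precision was enough to bound most of these differences. The 95% confidence interval lay within 0.5 of 0, a 1.41-fold change, for 69 of 70 genes and within 0.25, a 1.19-fold change, for 45. The exception at 0.5 was Ndufc2 (0.07, interval -0.43 to 0.58), the gene with the widest replicate spread. With the replicate block, its interval was -0.02 to 0.17, and all 70 intervals lay within 0.5 of 0.

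**Figure D2:**
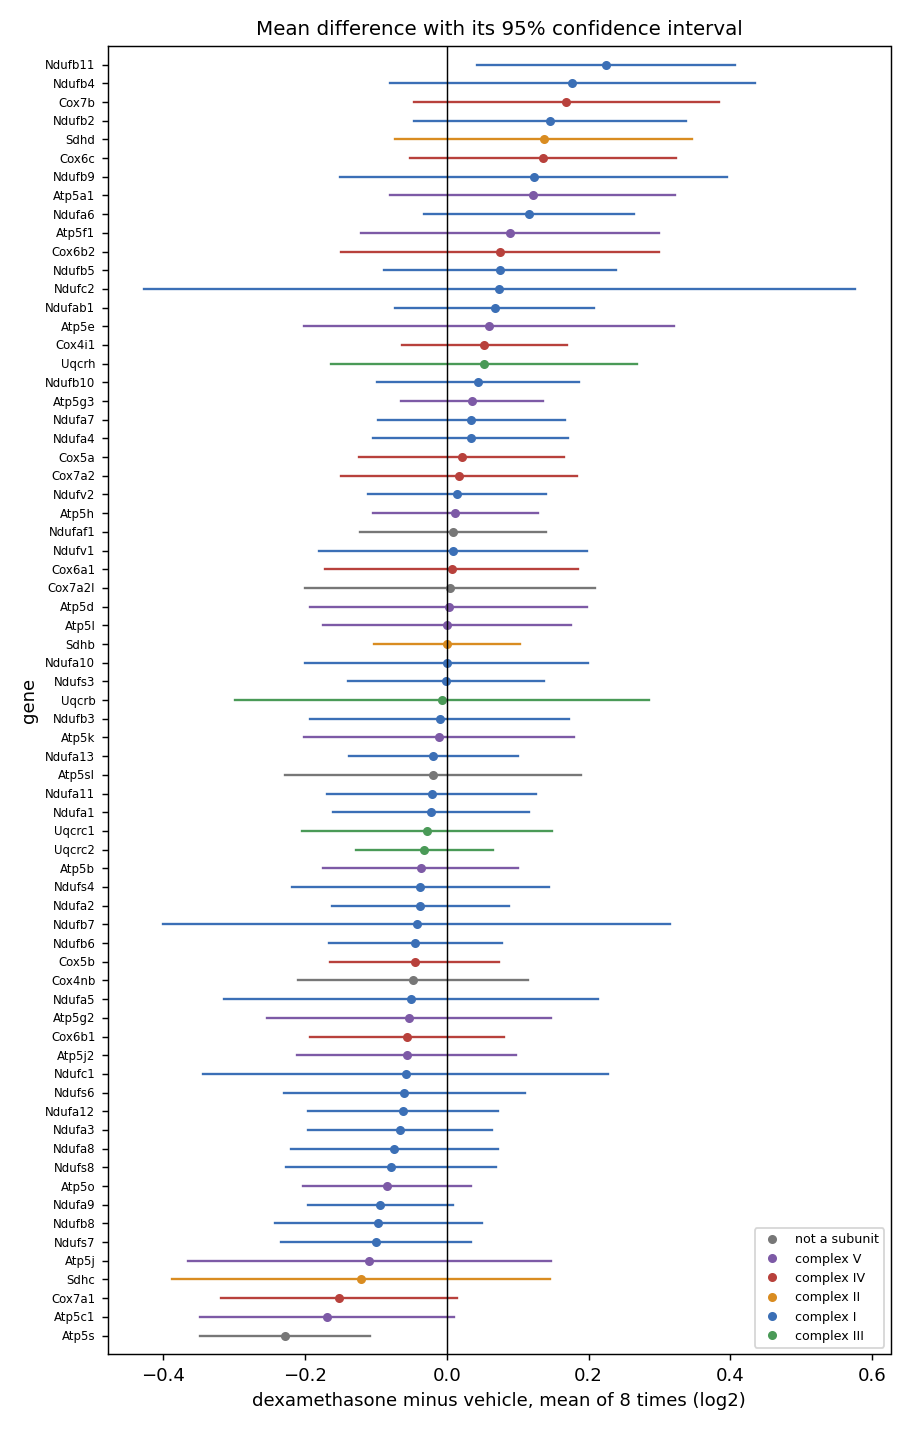
Mean of the 8 dexamethasone-minus-vehicle differences for 69 of the 70 genes (points, log2) with its 95% confidence interval (lines), coloured by complex. The points lie between -0.23 and 0.22; Atp5s at the bottom is the 1 gene called, and the interval of Ndufc2 is the widest.

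By complex, the differences lay on both sides of 0. The median difference was -0.01 for complex I (34 genes, from -0.10 to 0.22), 0.02 for complex IV (10 genes, -0.15 to 0.17) and -0.01 for complex V (14 genes, -0.17 to 0.12). In complex II, the iron-sulphur subunit Sdhb differed by 0.00 (SE 0.05), the membrane anchor Sdhc by -0.12 (SE 0.13) and the anchor Sdhd by 0.14 (SE 0.10), and none was called. Sdhb ranged from 11.13 to 11.76 with a median of 11.54 over the 18 dexamethasone arrays, and from 11.29 to 11.85 with a median of 11.52 over the 18 vehicle arrays. In complex III, with 4 genes, the differences ran from -0.03 to 0.05.

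Isoforms that differ between tissues were not called either. Over 18 arrays, Cox7a1 ranged from 7.87 to 9.08 with a median of 8.50 with dexamethasone and from 8.25 to 9.13 with vehicle. These ranges overlapped, but they pool the 8 times. Within times, Cox7a1 was lower with dexamethasone at 7 of the 8. Cox7a1, known as the heart and muscle form of a complex IV subunit, differed by -0.15 (SE 0.08, limma adjusted p 0.30), and its widely expressed counterpart Cox7a2 by 0.02 (SE 0.08). Cox6b1 differed by -0.06 (SE 0.07) and Cox6b2, known from testis, by 0.08 (SE 0.11). Cox4i1 and Cox6a1 differed by 0.05 (SE 0.06) and 0.01 (SE 0.09), while their isoforms Cox4i2 and Cox6a2 fell short of the intensity threshold. The genes Atp5g2 and Atp5g3, which encode the same c subunit of the ATP synthase rotor ring, differed by -0.05 (SE 0.10) and 0.04 (SE 0.05). The differences between the isoforms of a pair were not tested.

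At single times, no member was called at 0.25 h (0% of all genes called), 1 h (0.0622%), 2 h (0.713%), 4 h (2.34%), 6 h (2.04%), 18 h (3.59%) or 24 h (3.82%). At an unadjusted p under 0.05, limma without the replicate block gave 0 members at 0.25 to 6 h, 1 at 18 h and 1 at 24 h. That fit does not use the pairing of same-numbered arrays, so spread that pairs share at early times widens its SE. The counts of 0 therefore do not show an absence of change. The largest rise and fall were 0.27 (Atp5d) and -0.23 (Uqcrb) at 0.25 h, 0.24 (Uqcrb) and -0.28 (Atp5sl) at 1 h, and 0.20 (Uqcrb) and -0.23 (Cox4nb) at 2 h. They were 0.29 (Uqcrb) and -0.34 (Sdhc) at 4 h, 0.46 (Ndufb2) and -0.25 (Cox4nb) at 6 h, 0.45 (Ndufb11) and -0.53 (Atp5s) at 18 h, and 0.56 (Ndufb11) and -0.29 (Atp5s) at 24 h. Single times were less precise than the mean: the median SE was 0.24 where groups held 2 arrays, and at 24 h the interval lay within 0.5 of 0 for 18 of 70 genes. With the replicate block the median SE there was 0.15, and at 24 h 44 of 70 intervals lay within 0.5 of 0. The block fit has 1 estimate of spread per gene for all times, so pairing at early times narrows its intervals at 24 h too. Deviations of same-numbered arrays correlated at -0.13 at 24 h, so its intervals may be too narrow there.

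At 12 h, 1 member was called, Atp5s, against 5.6% of all genes. Members spread most widely there, from -0.76 for Atp5s to 0.70 for Sdhd (adjusted p 0.22). Without the 6 arrays low in Ndufc2, Atp5f1 was called at 12 h beside Atp5s. With array weights, 0 members were called at 12 h and 3 at 18 h, namely Ndufb11, Cox7a1 and Atp5s. With the replicate block, 4 were called at 12 h, among them Atp5s, the complex IV subunit Cox6b1 (-0.54, adjusted p 0.022) and the ATP synthase stalk subunit Atp5f1 (0.50, adjusted p 0.011). The arrays at 12 h differed within groups: Cox6b1 read 13.60 and 14.27 on the vehicle arrays and 13.19 and 13.59 on the dexamethasone arrays, and the summed microglia level was 13.7 on vehicle replicate 1 and 10.9 on vehicle replicate 2. What part this difference in microglia level has in the 12 h results was not tested.

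At 6 h the 70 genes leaned one way without any call. Of the 70, 56 had a difference above 0, with a median of 0.10 against -0.01 over all genes. Both dexamethasone arrays lay above both vehicle arrays for 33 of 70 members (23.8% of all genes), and below them for 5 (27.8% of all genes). All 10 complex IV genes were above 0 (0.04 to 0.36), as were 27 of 34 complex I genes and 11 of 14 complex V genes. These genes were read on the same few arrays, so their counts are not replicates. The mean level of the 70 was 11.91 and 11.94 on the dexamethasone arrays, and 11.88 and 11.77 on the vehicle arrays. Vehicle replicate 2, at 11.77, was the lowest of the 18 vehicle arrays. The median stayed between 0.05 and 0.15 under every alternative fit that was run. Most of these fits left the 6 h group means as they were, such as those without an array of another time. They could not move the median, so this range says little about how firm it is. The largest difference was that of Ndufb2, an accessory subunit of complex I, with a limma adjusted p of 0.95. At 6 h Ndufb2 read 9.19 and 9.21 with dexamethasone and 8.85 and 8.64 with vehicle. At no other time did the median reach that of 6 h: the medians were -0.04 at 0.25 h, 0.03 at 1 h, -0.003 at 2 h, -0.03 at 4 h, -0.06 at 12 h, -0.03 at 18 h and -0.04 at 24 h, and each of these had the opposite sign under at least 1 alternative.

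**Figure D3:**
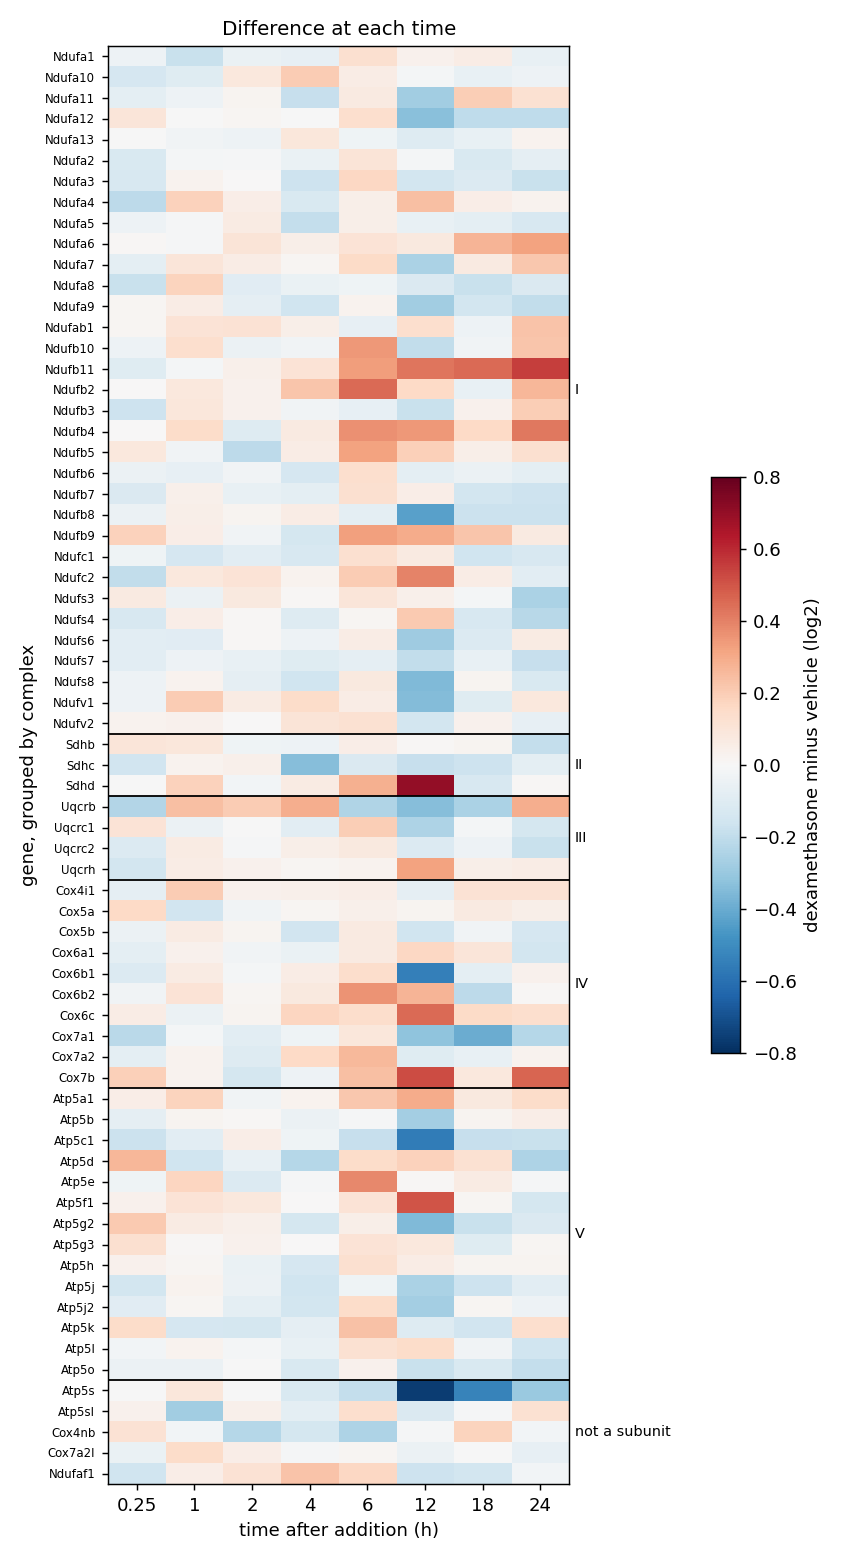
Dexamethasone-minus-vehicle difference (log2, colour scale from -0.8 in blue to 0.8 in red) of 69 of the 70 genes (rows, grouped by complex) at the 8 times (columns, h). The column at 6 h is mostly pale red, the column at 12 h has the widest spread, and the row of Atp5s is blue from 4 h on.

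For Atp5s, the regulatory factor of ATP synthase, the treatments separated late in the course. At 12 h its level was 9.02 and 9.06 on the dexamethasone arrays and 9.87 and 9.73 on the vehicle arrays. At 18 h it was 9.41 and 9.21 against 9.77 and 9.92, and at 24 h 9.55 and 9.58 against 9.91 and 9.82. At each of these times both dexamethasone arrays lay below both vehicle arrays. At 6 h they did so narrowly, with 9.13 and 9.28 against 9.29 and 9.50. With 2 arrays against 2, this order was common at a single time. It held for 18.8% of all genes at 12 h and 30.8% at 18 h, with the share at 24 h between these. The share of genes with this order at all of these times was not counted. At 0.25 h, by contrast, the Atp5s values were 10.03 and 9.73 against 10.01 and 9.75, and the groups overlapped. They also overlapped at 2 h, with 9.99, 9.72 and 9.59 against 9.92, 9.75 and 9.65. Summed levels of other cells' markers differed at the late times too. Fibroblast and endothelial markers, of which Lum was at no time above background, read 14.4 to 14.5 with dexamethasone and 13.0 to 13.6 with vehicle at 12 h, and 14.4 to 14.7 against 13.4 to 13.7 at 18 and 24 h. In this sum Ogn weighs most, with a mean intensity of 11544 against 316 to 835 for Col1a1, Col1a2 and Dcn. The endothelial markers Pecam1, Cldn5 and Cdh5 had means of 74.0 to 101, so the sum says little about endothelial cells. Ependymal markers read 12.0 to 12.4 against 12.8 to 13.4 at 12 h, and 12.7 to 13.1 against 13.2 to 13.3 at 18 and 24 h. Cell division genes read 13.47 to 13.64 with dexamethasone against 13.76 to 13.82 with vehicle at 12 h. At 18 and 24 h they read 11.99 to 12.68 against 13.91 to 14.13, and astrocyte markers 16.74 to 16.80 against 16.53 to 16.68. Summed microglia, oligodendrocyte lineage and neuron markers overlapped between treatments at 18 and 24 h. The part of these levels in the Atp5s difference was not tested.

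The difference was -0.76 (SE 0.17) at 12 h, with a limma adjusted p of 0.0067. It was -0.53 at 18 h (adjusted p 0.11, or 0.011 with the replicate block) and -0.29 at 24 h (adjusted p 0.57). The block fit pools its spread over all times, and no pairing was seen at 18 h, so its p there may be too small. Averaged over the 8 times the Atp5s difference was -0.23 (SE 0.06, adjusted p 0.0088). The late response, at 12, 18 and 24 h, minus the early response, at 1, 2 and 4 h, was -0.52 (SE 0.13, adjusted p 0.019), the 1 call among the 70 members against 4.82% of all genes. The call at 12 h was lost without vehicle replicate 1 at 12 h (adjusted p 0.056), the array with the high microglia level, and Cox6b1 and Atp5c1 were then called instead. The late-minus-early call was lost without dexamethasone replicate 2 at 1 h, vehicle replicate 1 at 1 h or dexamethasone replicate 2 at 18 h (adjusted p up to 0.057). Without the 12 h arrays the mean was -0.15 (adjusted p 0.17) and late minus early -0.40 (adjusted p 0.19).

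Ndufb11 was the member with the largest rise in the mean, 0.22 (SE 0.09), with a limma adjusted p of 0.12. At 12 h its level was 8.31 and 8.12 with dexamethasone and 7.82 and 7.76 with vehicle, and at 18 h 8.33 and 8.37 against 8.02 and 7.79. At 24 h it was 8.28 and 7.77 against 7.53 and 7.41. The groups did not overlap at these times. Both dexamethasone arrays also lay above both vehicle arrays for 13.7% of all genes at 12 h, and for larger shares at 18 and 24 h. With the replicate block the mean of Ndufb11 had an adjusted p of 0.012 and late minus early, 0.43, one of 0.049, against 0.32 without it. Its mean was also called without dexamethasone replicate 1 at 0.25 h, the array with its lowest level, 6.76, and without the 6 arrays low in Ndufc2. Left-out arrays added 1 other call to the mean, that of Atp5c1, the gamma subunit of ATP synthase (-0.17 on all arrays), without vehicle replicate 1 at 12 h. The Ndufb11 probe is the third dimmest of the 70.

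**Figure D4:**
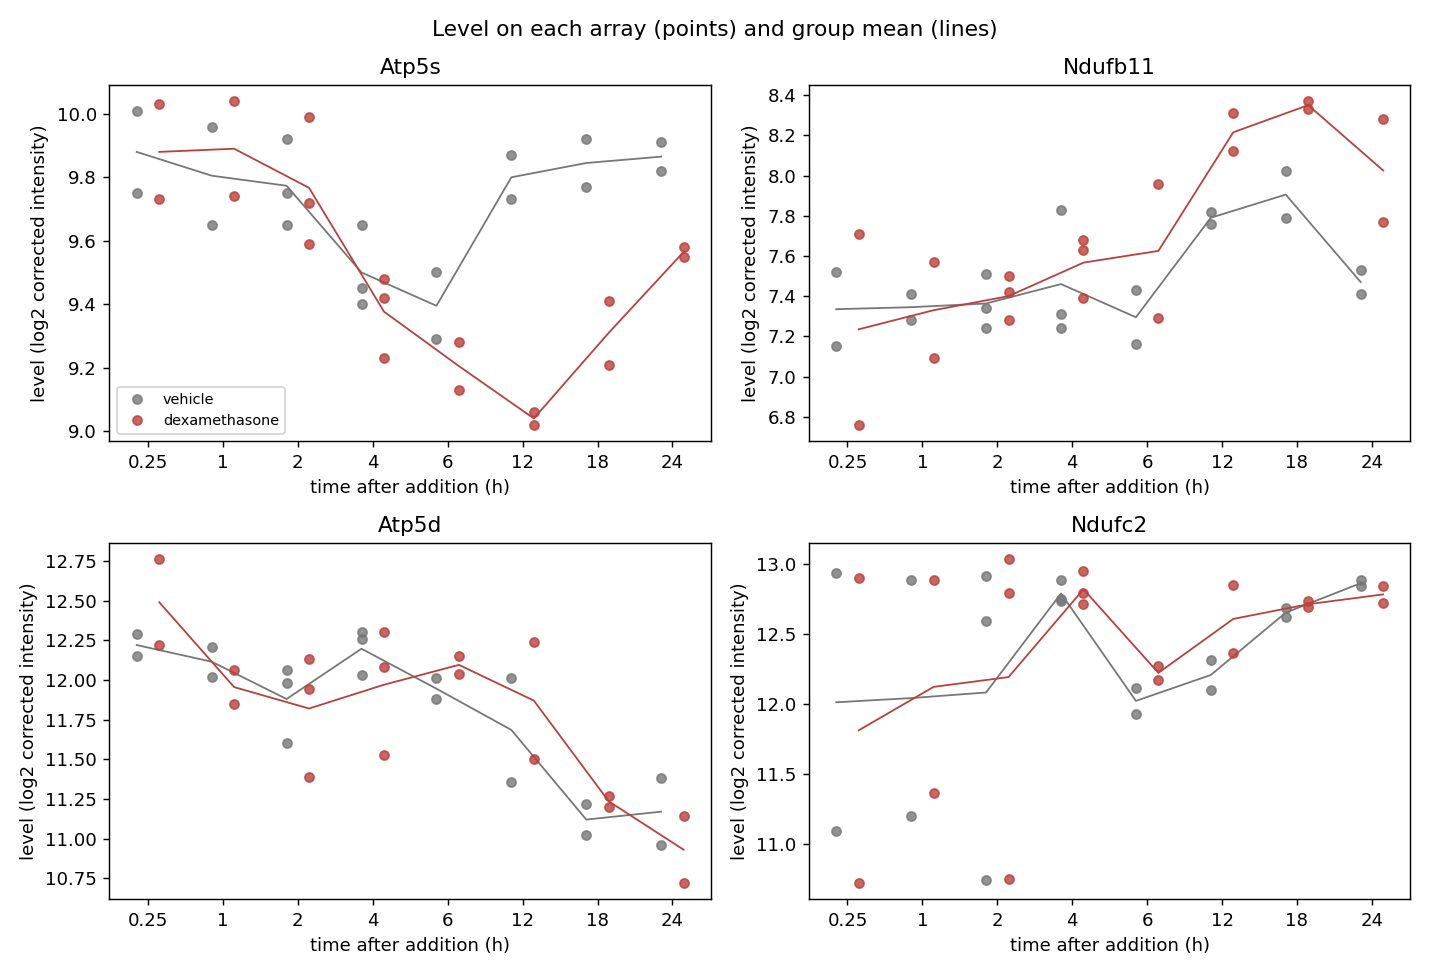
Level (vertical axes, log2 corrected intensity, scaled per panel) of Atp5s, Ndufb11, Atp5d and Ndufc2 on each array (points) at the 8 times (horizontal axis, h, evenly spaced), with lines through the group means, in grey for vehicle and red for dexamethasone. Atp5s falls to 9.02 and 9.06 at 12 h with dexamethasone, Atp5d is lower at 18 and 24 h in both treatments, and Ndufc2 is low on 6 arrays.

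More of these genes were called between times than between treatments. Within vehicle cultures, 12 of 70 were called between 18 and 24 h and 2, 4 and 6 h (5 higher, 7 lower), against 19.9% of all genes (9.01% higher, 10.9% lower) and 29.3% of those with a mean of 150 or more. Within dexamethasone cultures 16 were called (6 higher, 10 lower), against 26.4% of all genes (11.9% higher, 14.5% lower) and 37.9% of those with a mean of 150 or more. The members' shares, 17.1% and 22.9%, lay below these backgrounds, so these counts show no change over time particular to the respiratory chain. In both treatments 8 genes were called, 66.7% of the vehicle list and 50% of the dexamethasone list, all in the same direction. The overlap over all genes was not counted, so it is not read as particular to these genes. The comparisons share no arrays but are not independent. Both cross the same times, and deviations of same-numbered arrays correlated between treatments at 0.67 to 0.86 at 2 h.

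Among the 70 chosen probes, the largest fall over time was that of Atp5d, the delta subunit of the catalytic F1 part of ATP synthase. In vehicle it ranged from 11.60 to 12.30 (median 12.02) at 2, 4 and 6 h and from 10.96 to 11.38 at 18 and 24 h. In dexamethasone it ranged from 11.39 to 12.30 (median 12.06) and from 10.72 to 11.27. The early and late ranges did not overlap in either treatment. The difference was -0.86 in vehicle (SE 0.17, limma adjusted p 0.0012), and -0.88 in dexamethasone (SE 0.17, adjusted p 0.00043).

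Uqcrc1, a core protein of complex III, fell next, by 0.57 in vehicle and by 0.69 in dexamethasone. Its vehicle arrays read 11.68 to 12.19 early and 11.24 to 11.59 late. Ndufa9, an accessory subunit near the junction of the complex I arms, fell by 0.46 and by 0.56, from 12.65 to 12.99 down to 12.28 to 12.54 in vehicle. The other shared falls were Atp5j2, a membrane subunit of ATP synthase (-0.44 and -0.42), Ndufs8, an iron-sulphur core subunit of complex I (-0.40 and -0.40), and Cox5b, a complex IV subunit (-0.35 and -0.41). The shared rises were Cox6c, a complex IV subunit (0.51 and 0.55), and Ndufa1, an accessory subunit of complex I (0.38 and 0.38).

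Within complex I the called genes went both ways, 2 higher and 2 lower in vehicle and 5 higher and 4 lower in dexamethasone. In complex V all called genes were lower, 2 of 14 in vehicle and 4 of 14 in dexamethasone, where Atp5g2 (-0.53) and Atp5o (-0.34) joined. No complex II gene was called in either treatment.

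Most genes called in 1 treatment alone had a smaller value of the same sign in the other. In vehicle, Ndufa10, an accessory subunit of complex I, rose by 0.63 (adjusted p 0.013), and in dexamethasone it differed by 0.47 (adjusted p 0.0502). Cox6b1 rose by 0.39 in vehicle and differed by 0.31 in dexamethasone (adjusted p 0.059). In dexamethasone, Ndufb11 rose by 0.66, Ndufb3 by 0.51 and Ndufa6 by 0.50, all of complex I, with 0.32, 0.37 and 0.29 in vehicle. The 2 genes furthest from this pattern were no subunits: Atp5s rose by 0.30 in vehicle and differed by -0.01 in dexamethasone, and Cox4nb fell by 0.54 in vehicle and differed by -0.25 in dexamethasone. The differences between the treatments were not tested for these contrasts.

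**Figure D5:**
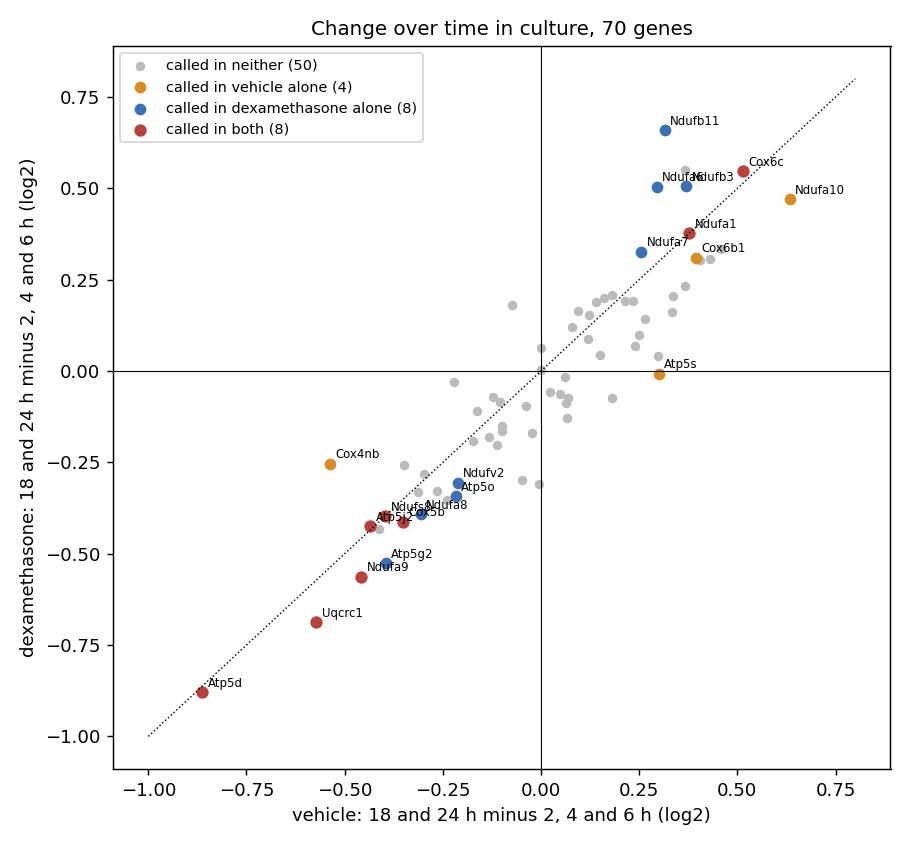
Change from 2, 4 and 6 h to 18 and 24 h (log2) in vehicle (horizontal axis) and in dexamethasone (vertical axis) for the 70 genes, coloured by where the change was called, with a dotted line of equal change. The 8 genes called in both lie close to that line, from Atp5d at -0.86 and -0.88 to Cox6c at 0.51 and 0.55.

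These counts rested on few arrays. The vehicle count of 12 was 7 without replicate 1 at 6 h, 3 without replicate 2 at 18 h and 2 without replicate 1 at 24 h, and Atp5d and Ndufa9 were called whichever array was left out. The dexamethasone count of 16 was 6 without replicate 1 at 18 h, 7 without replicate 2 at 18 h, 9 without replicate 1 at 24 h and 10 without replicate 2 at 24 h. There, Atp5d, Ndufa9, Ndufa6, Ndufb11, Uqcrc1 and Cox5b were called whichever array was left out. With array weights the vehicle count was 29. Over the same interval the summed level of cell division genes was 14.1 to 14.3 and then 12.0 to 12.7 in dexamethasone, and 14.1 to 14.4 and then 13.9 to 14.1 in vehicle. For fibroblast and endothelial markers, where Ogn weighs most, the summed level was 13.4 to 13.8 and then 14.4 to 14.7 in dexamethasone. In vehicle their summed level was 13.0 to 13.6 and then 13.4 to 13.7. That of ependymal markers was 12.5 to 13.0 and then 12.7 to 13.1 in dexamethasone, and 12.4 to 13.0 and then 13.2 to 13.3 in vehicle. The microglia level was 10.9 to 12.0 and then 11.7 to 12.1 in dexamethasone, and 11.1 to 12.1 and then 12.1 to 12.3 in vehicle. The part of these levels in the changes over time was not tested.

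Few members set the earliest cultures apart. Between 0.25 and 1 h and 2, 4 and 6 h, 2 of 70 were called in vehicle (12.4% of all genes) and 2 in dexamethasone (15.8%). All were higher at 0.25 and 1 h, the direction of 6.89% of all genes in vehicle and 8.94% in dexamethasone. They were Ndufa6 (0.51) and Ndufa7 (0.40) in vehicle, and Atp5s (0.44) and Ndufa6 (0.43) in dexamethasone, so the shares lay well under the background. Without the 6 arrays low in Ndufc2, which include 1 of the 2 arrays of each early group, none was called at the adjusted threshold. The vehicle count was 0 without replicate 1 at 0.25 h or replicate 2 at 1 h and 1 without replicate 2 at 6 h. The dexamethasone count was 0 without those same replicates, 1 without replicate 1 at 6 h, and 4 without replicate 2 at 0.25 h or replicate 2 at 4 h.

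Genes around the chain were counted from lists of related function. In the mean of 8 times, none was called of 5 electron carriers, 5 complex I assembly factors, 2 assembly factors of complexes II and III, 9 of complex IV and 4 of ATP synthase. Of 16 genes of the citric acid cycle and pyruvate dehydrogenase, 1 fell, fumarase Fh1 (-0.25, SE 0.08). Of 9 adenine nucleotide carriers, porins and uncoupling proteins, 1 rose, the uncoupling protein family member Slc25a27 (0.30, SE 0.10). Of 14 regulators of mitochondrial biogenesis, 2 fell, the coactivators Ppargc1b (-0.49, SE 0.12) and Pprc1 (-0.31, SE 0.07), and 12 were not called. In late minus early, the nuclear receptor Esrra rose by 0.53 (SE 0.15, adjusted p 0.029), the 1 call among these 14. Over all genes tested, 5.06% were called higher and 6.51% lower in the mean.

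Promoter sequences were set beside these results to show which binding motifs of known regulators of respiratory genes they hold. RefSeq (GRCm38.p6) promoters were found for 60 of the 70 genes, and the 250 bases before the gene start were searched on both strands. The palindromic motif of NRF1, whose letters are the capitals of Atp5g2 below, was present in 4 of 60 (6.67%) and in 0.877% of all 27025 promoters. The ETS motif CCGGAAG, bound by GABP, was present in 12 of 60 (20.0%) against 7.83%. The YY1 motif AAGATGGC was present in 2 of 60 (3.33%) against 1.83%, and the glucocorticoid receptor motif, an inverted repeat of the half-site TGTNC around 3 bases of any kind, in 0 of 60 against 0.440%. For a motif as rare as that of the glucocorticoid receptor, 0 of 60 is the likely count for any 60 promoters. A match is a run of letters and not a shown binding site, and no match says only that these letters are not in this window. Any of these motifs was held by 16 of the 60. Of the 20 genes called over time in either treatment, 18 had a promoter, and 2 of these, Cox6b1 and Atp5g2, held one. The promoters below are those of Atp5s, the 1 gene called for dexamethasone, of Cox6a1, which holds NRF1 and ETS motifs, and of Atp5g2 and Cox6b1. Each is given 5′ to 3′ on the gene's strand, with motif matches in capitals: NRF1 starting 162 bases and ETS 16 bases before the start in Cox6a1, NRF1 at 42 bases in Atp5g2, and ETS at 28 bases in Cox6b1. The matches shown do not overlap each other, and Atp5s holds none.
Atp5s (chr12:69724695-69724944, plus strand): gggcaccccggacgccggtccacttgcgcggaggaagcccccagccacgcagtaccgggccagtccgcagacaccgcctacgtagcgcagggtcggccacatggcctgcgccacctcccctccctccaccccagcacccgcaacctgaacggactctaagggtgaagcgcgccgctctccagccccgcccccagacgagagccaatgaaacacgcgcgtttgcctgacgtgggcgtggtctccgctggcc
Cox6a1 (chr5:115348959-115349208, minus strand): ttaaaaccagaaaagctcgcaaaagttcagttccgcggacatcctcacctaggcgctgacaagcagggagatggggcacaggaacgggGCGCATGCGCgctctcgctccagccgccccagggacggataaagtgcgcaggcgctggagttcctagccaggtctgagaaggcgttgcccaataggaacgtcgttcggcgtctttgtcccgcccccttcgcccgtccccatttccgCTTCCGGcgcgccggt
Atp5g2 (chr15:102671048-102671297, minus strand): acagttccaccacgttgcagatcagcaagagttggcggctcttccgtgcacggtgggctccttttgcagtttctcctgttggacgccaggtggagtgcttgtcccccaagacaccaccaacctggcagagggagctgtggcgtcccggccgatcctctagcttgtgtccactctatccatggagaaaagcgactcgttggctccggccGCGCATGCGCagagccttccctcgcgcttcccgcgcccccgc
Cox6b1 (chr7:30626115-30626364, minus strand): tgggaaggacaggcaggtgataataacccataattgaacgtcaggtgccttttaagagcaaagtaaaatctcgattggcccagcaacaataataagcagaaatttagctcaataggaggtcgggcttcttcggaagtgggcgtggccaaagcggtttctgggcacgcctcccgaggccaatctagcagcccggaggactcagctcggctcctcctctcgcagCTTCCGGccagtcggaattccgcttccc

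Other probes gave a partial check of the chosen ones. Of the 70 genes, 25 had 32 further probes, of which 24 had a mean of 150 or more. None was called in the mean of 8 times, at 12 h or in late minus early. Atp5s has 1 probe. Between 18 and 24 h and 2, 4 and 6 h, 4 were called in both treatments, belonging to Atp5o, Ndufc2, Ndufs4 and Sdhc. A second probe of Atp5o, the stalk subunit known as OSCP, had -0.82 in vehicle and -1.08 in dexamethasone, where the chosen probe had -0.22 (not called) and -0.34 (called). A further probe of Ndufs4 had 0.56 and 0.49, where the chosen probe had 0.25 and 0.10, neither called. The dimmer probe of Ndufc2 had 0.69 and 0.73, where the chosen probe had 0.46 and 0.34, neither called, and a probe of Sdhc with a mean of 76.3 had 0.43 and 0.40, where the chosen probe had -0.30 and -0.28, neither called. For these genes the change over time thus depended on the probe.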

How the data were processed

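Total RNA was labelled and hybridized to Illumina BeadChips. Per the submitters' processing notes, GenomeStudio was used (version not given in the sources used here). The deposited series table holds 1 linear intensity per probe and array for 45281 probes. The authors had normalized these intensities: sorted values of any pair of arrays differ by at most 0.5 beyond the 10 lowest, and array medians run from 93.7 to 94. The other deposited table, with 36 intensity and 36 detection p columns that match no sample label, was used for gene symbols only; it pairs probes with symbols as other (text) values. 79 of 79 symbols matched RefSeq, 4 of them as older names.

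Intensities were corrected by normexp (offset 16) and put on the log2 scale. The background level came from the low side of all intensities, mirrored at the mode, near the top of that mirrored distribution (90.8, or 5.81 corrected). Probes above it on at least 2 arrays and with 1 symbol were kept (29910 probes above it). One model with 16 group means was fitted to all 36 arrays, using limma 3.58.1 under R 4.3.3 (20 residual degrees of freedom), with Benjamini-Hochberg adjustment over 20893 genes and calls at 0.05. The fit was tested on simulated data with independent spread on each array. That test does not cover spread shared by same-numbered arrays. No replicate arrays were identical.

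Replicate numbers were taken to pair samples: deviations of same-numbered arrays correlated at 0.67 to 0.86 at 2 h and at 0.35 to 0.57 at 4 h, where there are 3 pairs. With 2 pairs they correlated at 0.80 at 0.25 h, 0.73 at 1 h and 0.51 at 12 h. No such pairing was seen at 6 h (0.03), 18 h (-0.05) or 24 h (-0.13). The block fit pools its spread over all times, so its intervals and p-values at 6, 18 and 24 h may be too small. Members and gene lists were chosen with earlier results of these data known. Text names members called (up to 3 each way per comparison, 10 in the mean), the extremes where none was called, isoform pairs, the Sdh genes, and the highest and lowest means; other called members and single genes were named after their values were seen. Figures were drawn with matplotlib 3.10.9. One member is counted but not reported by name, and 3 of the figures leave it out.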

Additional observations from a re-analysis of the deposited data

Results flagged for a closer look

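The response of Atp5s to dexamethasone differed between late times (12, 18 and 24 h) and early times (1, 2 and 4 h) by -0.52 on the log2 scale, in limma's test of that difference (adjusted p 0.019). The call was lost without any 1 of 3 arrays (adjusted p up to 0.057), and without the 12 h arrays the value was -0.40 (adjusted p 0.19). Both dexamethasone arrays lay below both vehicle arrays at 12, 18 and 24 h. At these times taken singly, this order held for 18.8% to 30.8% of all genes.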

How the results depend on the processing

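Called genes were followed one by one for at most the 3 largest rises and 3 largest falls of a comparison. None of these turned its direction under any alternative that was run, and the other called genes were not followed this way. The followed genes were the largest called changes of these same data, so a kept direction was likely in advance. The members' median did turn: it ran from -0.02 to 0.01 for the mean of 8 times, -0.11 to 0.08 at 0.25 h, -0.08 to 0.10 at 1 h, -0.06 to 0.02 at 2 h, -0.08 to 0.05 at 4 h, -0.12 to 0.03 at 12 h, -0.07 to 0.01 at 18 h and -0.08 to 0.01 at 24 h. The counts of members called at 0.25, 1, 2, 4, 6 and 24 h were 0 under every alternative, including each left-out array. Over left-out arrays the counts ran from 1 to 2 for the mean of 8 times, 1 to 2 at 12 h, 0 to 0 at 18 h, 0 to 1 for late minus early, 2 to 16 (vehicle) and 6 to 18 (dexamethasone) for 18 and 24 h minus 2, 4 and 6 h, and 0 to 3 (vehicle) and 0 to 4 (dexamethasone) for 0.25 and 1 h minus 2, 4 and 6 h. With array weights they were 0 at 12 h, 3 at 18 h and 29 for the vehicle change to 18 and 24 h. With the replicate block they were 2 for the mean, 4 at 12 h, 1 at 18 h and 2 for late minus early; as a random effect the block gave 12, 2, 17 and 2 for the comparisons across times. Crossing the pairing at 24 h, an alternative added after seeing the data, gave 2 for the mean and 0 at 24 h. Without the 12 h arrays they were 0 for the mean, 0 for late minus early and 4 for the early dexamethasone comparison. Without the 6 arrays low in Ndufc2, also added after seeing the data, they were 2 for the mean, 2 at 12 h and 0 for both early comparisons. Where no arrays were dropped, the cause was not tested. Of the values of the followed genes over the alternatives, 831 stayed called and 43 did not. For most of these genes, most left-out arrays lay outside the comparison, where leaving them out cannot move the difference. The tally therefore makes the calls look firmer than they are. Cox6c, for example, lost its call for the vehicle change to 18 and 24 h without any 1 of 7 arrays. Signal over background limits the dimmest probes, Ndufab1, Atp5k and Ndufb11.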
